A study of Caenorhabditis elegans with 2 samples.

Results

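Binding of SDC-2 was examined at the worm gene xol-1 and at 5 genes that signal X chromosome or autosome number to it. The method was chromatin immunoprecipitation and sequencing (ChIP-seq). The genes were chosen by name: xol-1, the X signal elements sex-1, ceh-39 and fox-1, and the autosomal signal elements sea-1 and sea-2. They are 6 of the 19973 nuclear protein-coding genes in the annotation, and all 6 were found in it. For each gene every peak was listed whose summit lay in the gene or within 10000 bp of it, a stretch called the gene window here.

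In C. elegans, sex is set by the number of X chromosomes relative to the sets of autosomes, and xol-1 is the gene that reads this ratio. X signal elements lower xol-1 activity in proportion to the number of X chromosomes, and autosomal signal elements raise it. When xol-1 is active the embryo becomes a male, because XOL-1 keeps sdc-2 off. When xol-1 is repressed, as in hermaphrodites, SDC-2 is made and brings the dosage compensation complex to both X chromosomes. SDC-2 therefore acts downstream of the genes whose chromatin is described here.

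All libraries came from 1 group of 2 biological replicates. The worms were hermaphrodite late embryos of strain OP92, a stable transgenic line whose SDC-2 is fused at the C terminus to GFP and FLAG. They were taken 3.25 hours after synchronization by egg bleaching, and the chromatin was sonicated and precipitated with an antibody to GFP. Whole embryos were used, so the cells that carry a bound site are not known. Males and worms without the tag were not analysed here. The sources used here do not give the promoter of the transgene, nor say whether untagged SDC-2 remained.

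The authors deposited a list of peaks and background for each replicate (25174 and 24450 peaks), a list called on both replicates pooled (26640 peaks), and 1344 peaks that passed their irreproducible discovery rate (IDR) threshold. Of these last, 1343 lay on nuclear chromosomes and are called IDR peaks. The signal of a peak is the authors' own value, comparable only within a list, and ranks count nuclear peaks from the strongest. In the pooled list the signal ran from 22.5 to 21888, and the weakest IDR peak had 82.4. No read counts were given with the peaks, so the depth is unknown.

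SDC-2 peaks were unevenly spread over the 6 genes. The windows held 14 IDR peaks, 7 at xol-1, 4 at ceh-39, 2 at sex-1, 1 at sea-2 and 0 at fox-1 and sea-1. Of the 4 X members 3 had at least 1 IDR peak in the window, where 49.3% of the 2731 protein-coding genes on X did (exact 95% interval 47.4 to 51.2%). Of the autosomal members 1 of 2 did, where 18.8% of 17242 autosomal genes did (interval 18.2 to 19.4%). Neighbouring genes share peaks in such windows, so these intervals cover the counting of genes only. Longer genes have longer windows, and the shares were not matched for length. Every member had peaks in the pooled list, from 5 at sea-1 to 22 at sea-2, but so did 98.6% of X genes and 93.9% of autosomal genes.

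**Figure D1:**
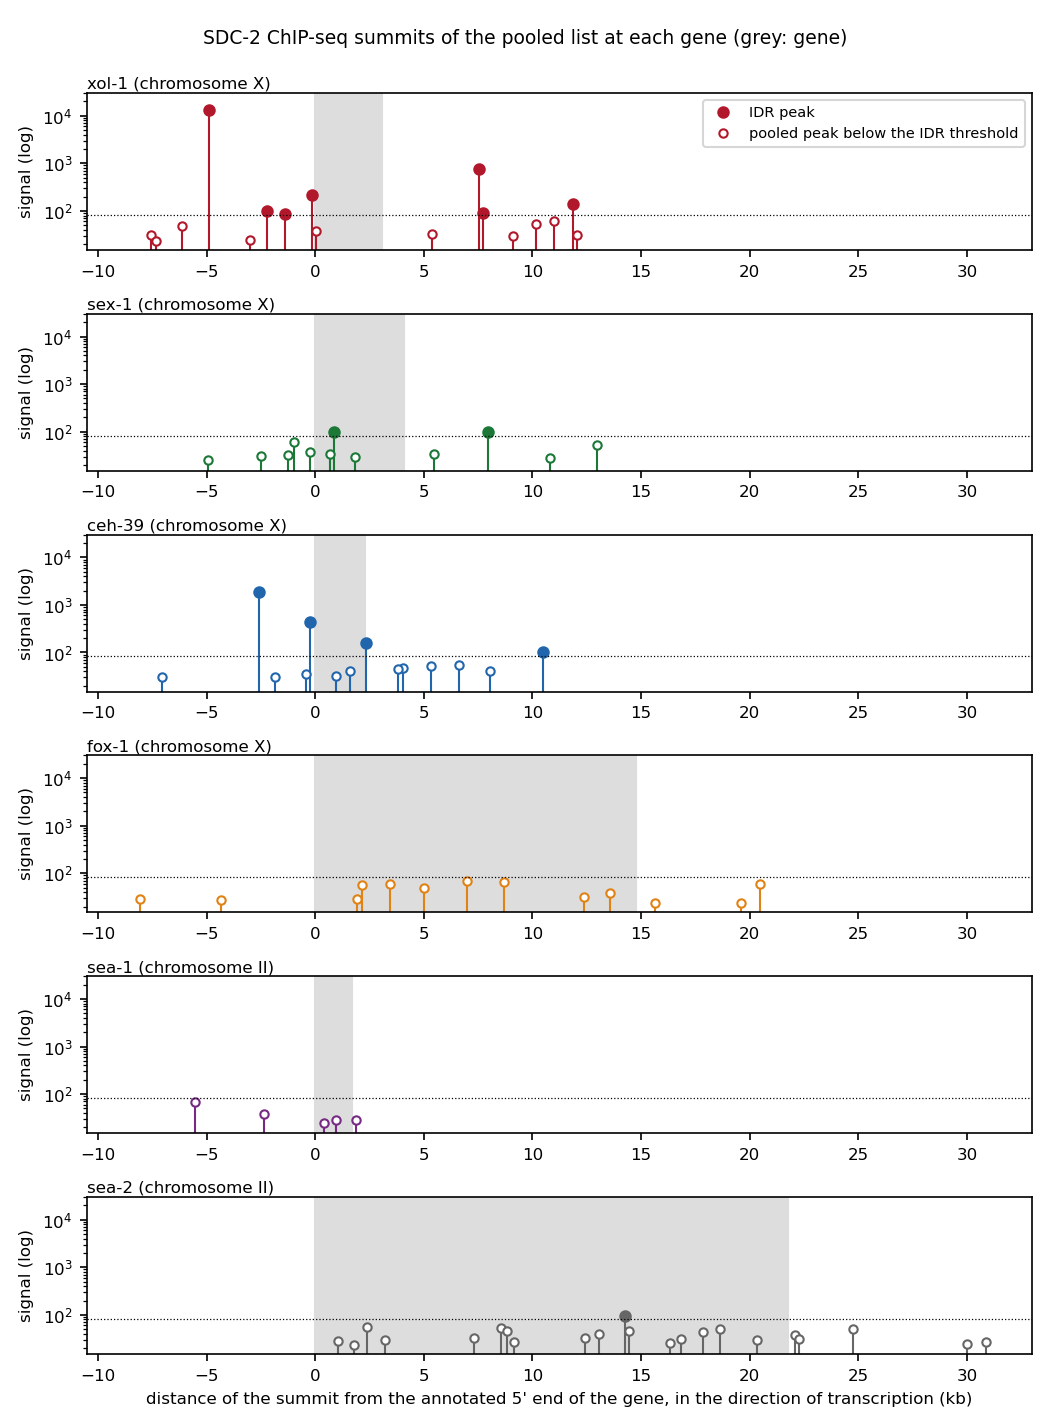
Each panel shows 1 gene, with the distance of the pooled-list summits from its annotated 5′ end on the x axis (kb, in the direction of transcription) and their signal on the y axis (log scale). Filled circles are IDR peaks, open circles are pooled peaks below the IDR threshold, the grey band is the gene and the dotted line is the weakest IDR peak, at 82.4. The tallest stems stand upstream of xol-1 and of ceh-39, and the panels of fox-1 and sea-1 have open circles only.

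The sequences shown are those under the 2 strongest summits of xol-1 and of ceh-39, and under the weaker summit at the xol-1 promoter. That promoter summit was included because the X signals SEX-1 and CEH-39 act on xol-1 there. Each sequence is the plus strand of ce11 (RefSeq WBcel235), 100 bp to either side of the summit. The first lies far upstream of xol-1 (X:8036329-8036529), the second downstream of xol-1 (X:8048754-8048954), the third at the xol-1 promoter (X:8041056-8041256), the fourth upstream of ceh-39 (X:1858673-1858873) and the fifth at the ceh-39 promoter (X:1856293-1856493). Capitals mark CGCGNAGGG, or the CGCAGGG it can hold, on either strand in the first 2 sequences and GACGCAG in the third. In the fourth they mark the first 55 bases of a glutamate tRNA gene, and the fifth has none.

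xol-1 upstream, rank 12: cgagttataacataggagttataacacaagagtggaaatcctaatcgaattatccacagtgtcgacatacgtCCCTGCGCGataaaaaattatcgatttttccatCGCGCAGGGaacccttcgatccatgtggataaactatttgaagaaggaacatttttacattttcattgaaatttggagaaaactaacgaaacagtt

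xol-1 downstream, rank 48: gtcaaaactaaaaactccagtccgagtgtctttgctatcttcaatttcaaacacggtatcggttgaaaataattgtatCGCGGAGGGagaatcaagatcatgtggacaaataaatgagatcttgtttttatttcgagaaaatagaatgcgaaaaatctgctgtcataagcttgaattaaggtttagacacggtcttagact

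xol-1 promoter, rank 209: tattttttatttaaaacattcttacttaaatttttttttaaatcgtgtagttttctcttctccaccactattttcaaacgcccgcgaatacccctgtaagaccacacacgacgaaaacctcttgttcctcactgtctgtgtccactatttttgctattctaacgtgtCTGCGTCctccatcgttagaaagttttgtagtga

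ceh-39 upstream, rank 34: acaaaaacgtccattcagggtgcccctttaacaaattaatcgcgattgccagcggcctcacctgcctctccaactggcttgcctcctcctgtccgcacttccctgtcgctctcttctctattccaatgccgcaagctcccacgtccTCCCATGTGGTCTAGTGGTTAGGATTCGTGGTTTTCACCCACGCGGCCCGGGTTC

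ceh-39 promoter, rank 77: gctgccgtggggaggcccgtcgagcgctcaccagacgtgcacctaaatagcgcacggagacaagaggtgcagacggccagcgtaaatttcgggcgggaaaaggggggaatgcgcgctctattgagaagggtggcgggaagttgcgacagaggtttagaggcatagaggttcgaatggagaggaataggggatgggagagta

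The gene xol-1 (WBGene00006962, X:8041313-8044409, plus strand) encodes a protein related to metabolite kinases that acts as the switch for male fate. Its strongest peak, X:8035925-8037042, had its summit in intergenic sequence 4884 bp upstream of the 5′ end. The signal was 12899 in the pooled list, 6242 in replicate 1 and 6686 in replicate 2, and the rank was 12, 13 and 11 in these lists. The summit was at the same base, X:8036429, in all 3. No other protein-coding 5′ end was closer to it, but the 5′ end of an arginine tRNA gene, C18A11.t2, lay 328 bp away.

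The window of xol-1 held a second strong peak on the other side of the gene. Its summit, X:8048854, was intergenic and 4445 bp past the 3′ end of xol-1, with C18A11.4 as the nearest protein-coding 5′ end at 3336 bp. The signal was 759 in the pooled list, 385 in replicate 1 and 374 in replicate 2, with ranks of 48, 48 and 50. The same interval carried a weaker summit 205 bp further on, with a signal of 90.1 and rank 1115. That summit differed more between replicates, with rank 1988 in replicate 1 and 494 in replicate 2.

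At the promoter of xol-1, where SEX-1 and CEH-39 are known to act on transcription, the summit lay 157 bp upstream of the 5′ end (X:8041062-8041270). The signal was 216 in the pooled list, 100.1 in replicate 1 and 108.6 in replicate 2, and the ranks were 209, 223 and 228. Its replicate summits were 3 bp apart. The site 4884 bp upstream was far above this one in each list.

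Between these sites lay a pair of weak peaks, 2226 and 1394 bp upstream of xol-1, with signals of 99.9 and 85.6 and ranks of 863 and 1243. The first ranked 2051 in replicate 1 and 675 in replicate 2. The second, at X:8039919, ranked 1134 in replicate 1 and had no summit within 100 bp in replicate 2. The nearest summit there, X:8040036, lay just past that limit, with a signal of 40.9 and rank 1783. The last IDR peak of the window, with a signal of 137 and rank 454, lay 8757 bp beyond xol-1 in an intron of dim-1, a gene needed for ordered muscle, and 486 bp from its nearest annotated 5′ end. This peak had similar ranks in the replicates, 471 and 501.

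The body of xol-1 itself, whose transcript FOX-1 acts on in splicing, held no IDR peak. Over its 3097 bp the pooled list had 1 summit, 46 bp from its start in a coding exon, at rank 9486 and a signal of 37.9. It was matched in replicate 2 (rank 1381) but not in replicate 1. ChIP-seq reads DNA, so binding to the transcript is not measured.

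With 7 IDR summits, xol-1 had as many as any X gene. The only other X gene with 7 was its downstream neighbour C18A11.4, whose window covers the same peaks. The median X gene had 0, the upper quartile was 1, and 64 of 2731 X genes had 4 or more. Per length the xol-1 window held 3.03 IDR peaks per 10 kb, where the mean over X genes was 0.330. When summits less than 250 bp apart were merged, xol-1 had 6. It had 5 among the 1343 strongest peaks of replicate 1 and 7 in replicate 2, of which 1, at rank 946 there, was not an IDR peak.

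**Figure D2:**
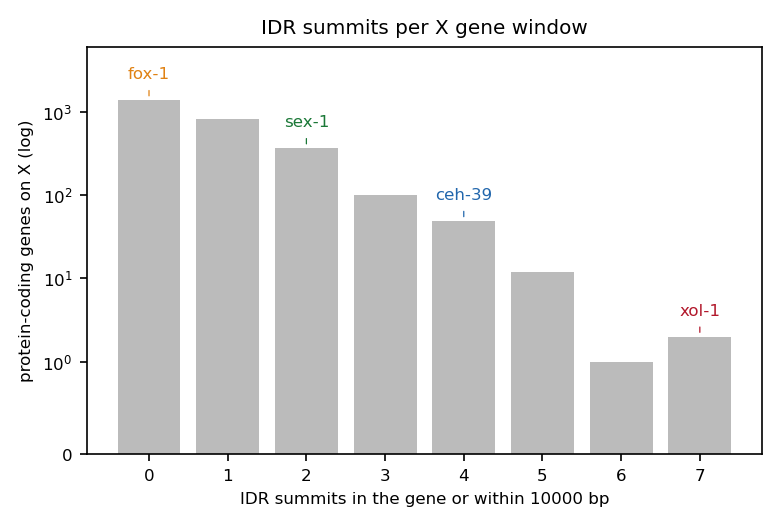
Bars give the number of protein-coding genes on X (y axis, log scale above 1) for each number of IDR summits in the gene or within 10000 bp (x axis). The X members are named above their bars: fox-1 at 0, sex-1 at 2, ceh-39 at 4 and xol-1 at 7, the end of the scale.

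Among the X signal elements, ceh-39 had the strongest peaks. The gene (WBGene00000460, X:1853874-1856172, minus strand) encodes a homeodomain protein of the ONECUT family that represses xol-1 transcription, and its neighbours ceh-21 and ceh-41 belong to the same family. Its top peak, X:1858469-1859078, had its summit 2601 bp upstream, with a signal of 1894 in the pooled list, 915 in replicate 1 and 982 in replicate 2. The ranks were 34, 36 and 34. Both replicates had a further summit in this interval that the pooled list lacked, at X:1859000 in replicate 1 (signal 25.2, rank 5412) and X:1858975 in replicate 2 (signal 132.4, rank 162). With it ceh-39 had 5 summits among the 1343 strongest peaks of replicate 2, and it had 4 in replicate 1. The strongest summit lay 46 bp from the 5′ end of a glutamate tRNA gene, T26C11.t1 (X:1858819-1858890), and 1949 bp upstream of T26C11.8, the closest protein-coding gene by its 5′ end.

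The ceh-39 promoter carried the second peak of the window, with the summit 221 bp upstream of the gene (X:1856222-1856550). The signal was 441 in the pooled list, 191 in replicate 1 and 249.8 in replicate 2, and the ranks were 77, 90 and 70. This promoter summit was stronger than the one at the xol-1 promoter in all 3 lists. Another peak (signal 161, rank 338) lay 54 bp past the 3′ end of ceh-39 and 29 bp from the 5′ end of the next gene, T26C11.9, in its 5′ UTR. It ranked 241 in replicate 1 and 619 in replicate 2. The fourth (103.7, rank 788) lay 118 bp upstream of T26C11.4 and 8210 bp past the 3′ end of ceh-39.

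The weaker summits in the window of ceh-39 included 3 in coding exons and 2 elsewhere in ceh-21 and ceh-41. The 10 pooled summits below the IDR threshold had signals from 29.8 to 53.8. Of the X genes, 4.76% had an equal or better best rank in their windows than ceh-39, and 1.87% than xol-1. The upstream peaks also lay in the windows of neighbouring genes, so that 4 genes shared the one of xol-1 and 5 that of ceh-39, each count including the member itself.

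The gene sex-1 (WBGene00004786, X:10201329-10205421, minus strand) encodes a nuclear hormone receptor that binds the xol-1 promoter and represses it. Both of its IDR peaks were below the median IDR signal of 111.8. The one inside the gene had its summit in intron 2, 880 bp into the gene. Its pooled signal was 99.1, at rank 880. In replicate 1 the signal was 37.1 (rank 1799) and in replicate 2 54.4 (rank 883), with summits up to 53 bp from the pooled one. The other lay 3873 bp past the 3′ end and 250 bp upstream of nucb-1, which encodes a nucleobindin, with a signal of 98.8 and rank 889. In replicate 1 its signal was 49.1 (rank 871) and in replicate 2 43.3 (rank 1527).

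Each of these sex-1 peaks thus fell below rank 1343 in 1 replicate, and not in the same one. Upstream of sex-1 there was no IDR peak within 10000 bp. The best of 5 pooled summits there lay 987 bp upstream, with a signal of 59.3 and rank 3082, and had no match within 100 bp in replicate 2. Of the X genes, 19.4% had 2 or more IDR peaks in the window and 40.1% had an equal or better best rank. A stronger IDR peak, with a signal of 197 and rank 236, lay outside the window, 12679 bp from sex-1.

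The gene fox-1 (WBGene00001484, X:2445117-2459893, minus strand) encodes an RNA-binding protein that changes the splicing of xol-1. Its window of 34.8 kb, the longest on X among the members, held no IDR peak, as did the windows of 1385 of the 2731 X genes. Of its 13 pooled summits 8 lay inside the gene, 6 of them in introns. The strongest, 7008 bp into the gene, had a signal of 69.6 and rank 2003, with rank 2092 in replicate 1 and no summit within 100 bp in replicate 2. The next, at 8673 bp, had a signal of 65.8 and rank 2320, with ranks of 7434 and 1609 in the replicates. Several fox-1 transcripts start inside the gene, and these summits lay 1077 and 588 bp from the nearest of their 5′ ends.

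The replicates did not share a strongest site at fox-1. In replicate 2 the best summit lay 3516 bp downstream of the 5′ end, at rank 1509, and in replicate 1 it lay at 7013 bp. The nearest IDR summit was 12443 bp outside the gene, with a signal of 134 and rank 474. The strongest pooled peak of fox-1 fell short of the weakest IDR peak by 12.9 units of signal. Of the X genes, 59.4% had an equal or better best rank.

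The autosomal signal elements sea-1 and sea-2 both lie on chromosome II and raise xol-1 activity. The gene sea-1 (WBGene00004750, II:3671908-3673593, minus strand) encodes a T-box transcription factor. Its window held 5 pooled summits and no IDR peak, and the nearest IDR summit on its chromosome was 104070 bp outside the gene. The strongest pooled summit lay 5549 bp upstream, in an intron of F19B10.10, with a signal of 66.9 and rank 2211. In replicate 1 it ranked 6511 and in replicate 2 1544. The 2 summits inside sea-1 had signals of 28.4 and 24.8, below the 32.6 that is the median of the pooled list.

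The gene sea-2 (WBGene00004751, II:3950377-3972140, plus strand) encodes a zinc finger protein. Its IDR peak, II:3964414-3964863, had its summit inside the gene in a coding exon, with a signal of 96.5 in the pooled list, 41.8 in replicate 1 and 58.8 in replicate 2. The ranks were 942, 1286 and 750. The summit lay 14262 bp from the 5′ end of the gene, but 299 bp from that of the closest of its 19 annotated transcripts. The window held 22 pooled summits, 17 of them in the gene, over 41.8 kb. That is 5.27 per 10 kb, where the median autosomal gene had 2.24.

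**Figure D3:**
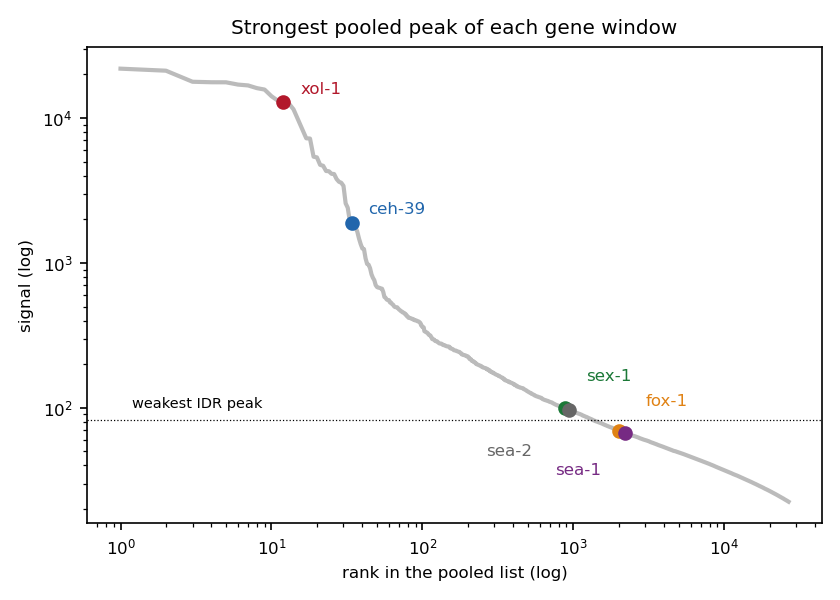
The grey line gives the signal (y axis, log scale) of all pooled peaks by rank (x axis, log scale), and each coloured point is the strongest peak in 1 gene window. The point of xol-1 (rank 12) lies where the steep fall of the line begins, ceh-39 (rank 34) on that fall, sex-1 (880) and sea-2 (942) just above the dotted line of the weakest IDR peak, and fox-1 (2003) and sea-1 (2211) below it.

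Positions near transcript starts varied among the members. Of the 4 X members 3, xol-1, ceh-39 and sex-1, had an IDR summit no more than 1000 bp from a transcript 5′ end, where 11.2% of X genes had one. Among the autosomal members sea-2 had one, at a start inside the gene and not at the gene's own 5′ end, where 3.6% of autosomal genes had one. These shares were not matched for the number of transcripts, of which sea-2 has 19. Of the 14 IDR summits, 6 lay upstream of the member, 2 inside it and 6 downstream. By host feature 10 were intergenic, 2 intronic, 1 in coding sequence and 1 in a 5′ UTR. For 7 of the 14 the nearest protein-coding 5′ end was that of another gene. The matching shares over all IDR peaks are not given here, so these counts of place and host feature describe the members only.

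The replicates agreed in rank at the strong sites and less at the weak ones. Of the 14 IDR summits 13 had a summit within 100 bp in both replicates, as did 1286 of all 1343. Within 50 bp it was 11 of the 14, and within 200 bp all 14. The IDR list was itself chosen for agreement of these replicates. Each replicate list has its own scale, so the ratio of the signal of replicate 2 to that of replicate 1 is read against the ratio over all IDR peaks, whose median was 1.10. It was 1.07 at the strongest sites of both xol-1 and ceh-39, 0.973 at the downstream xol-1 peak and 1.08 at the xol-1 promoter. It ran from 0.671 to 1.95 over the 13, where the middle 90% of all 1286 IDR peaks with a summit in both replicates spanned 0.679 to 1.89. Of the 69 pooled summits below the IDR threshold in the windows, 18 had a match in both replicates. The share over all pooled summits below the threshold is not given here, so this count is a description only.

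**Figure D4:**
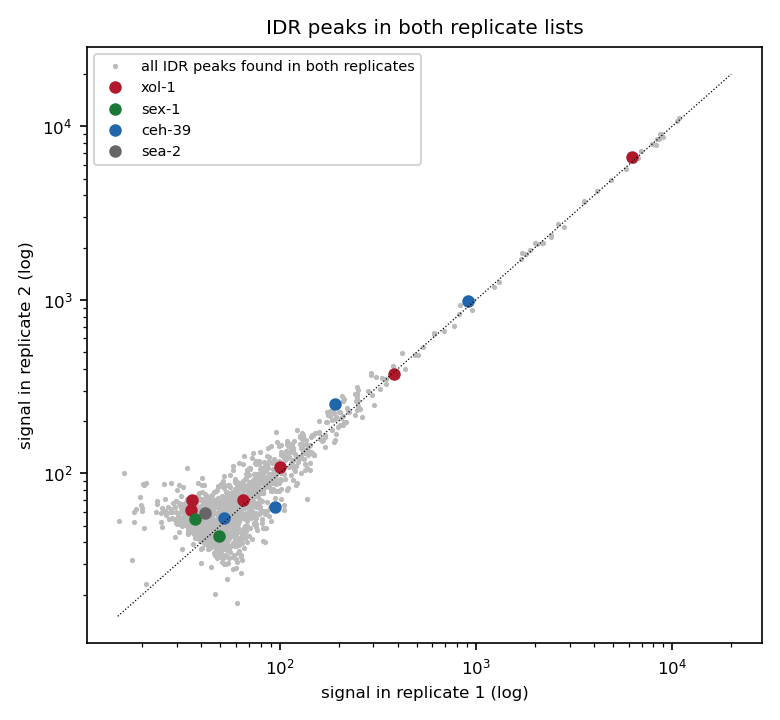
Each point is an IDR peak with a summit within 100 bp in both replicate lists, by its signal in replicate 1 (x axis, log scale) and replicate 2 (y axis, log scale). Coloured points are peaks in the windows of the members, grey points all others, and the dotted line marks equal numbers on separate scales. The top xol-1 point (6242 and 6686) and the top ceh-39 point (915 and 982) lie close to the line, while the members' points under 100 are scattered around it.

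The sequence under the xol-1 upstream summit held CGCAGGG, letters found in the MEX motif of X recruitment elements, on both strands. The matches were centred 25 and 10 bp from the summit, as capitals in the sequence above show. No other of the 14 summit windows held it, where 33 of 563 X summits (5.86%) and 13 of 780 autosomal summits (1.67%) did within 100 bp. Among the 20 strongest X summits 13 held it. The strongest ceh-39 summit, at rank 34, had no match. Of the 69 summits below the IDR threshold 1 had a match, 4334 bp upstream of fox-1 at rank 18053.

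The downstream xol-1 summit held a close relative, which was noticed in the printed sequence and chosen after it was seen. The letters CGCGNAGGG, in which N is any base, lay 18 bp from that summit on the plus strand. They overlap CGCAGGG and matched at both places in the upstream site too, so the 2 strongest sites around xol-1 both held them. In all, 23 of 563 X summits (4.09%) and 5 of 780 autosomal summits (0.641%) had a match. Among the 20 strongest X summits 11 had one, so the letters were common at strong X sites and not particular to xol-1. Since the letters were taken from 1 of the members, their presence there is a description only.

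A second run of letters, GACGCAG, was also sought on either strand. Both it and the last run sought, GAGAGAG, lie inside longer runs that led an earlier search of these same summits. Their shares over all summits are therefore not independent of how they were chosen. GACGCAG was found at the xol-1 promoter, 70 bp from the summit, and at the peak in the 5′ UTR of T26C11.9. That is 2 of 14 windows, where 14.0% of X and 13.7% of autosomal summits had it. The last one sought, GAGAGAG, was in 0 of the 14, where 22.0% of X summits had it. It was in 7 of the 69 weaker summits (10.1%), among them a pair in intron 2 of sea-2 at ranks 3541 and 4179. The GC content of the windows ran from 29.4% to 62.2% with a median of 42.5%, and the median over all X summits was 49.3%. The upstream and downstream xol-1 sites had 36.8% and 35.8%, the ceh-39 upstream and promoter sites 56.2% and 58.7%.

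The strongest peaks of xol-1 and ceh-39 were the 2 of the 14 that lay within 500 bp of a tRNA 5′ end, at 328 and 46 bp. Of the 20 strongest X summits 1 lay within 500 bp of a tRNA 5′ end, the xol-1 one, and of the 50 strongest 10 did. Over all IDR summits it was 16.9% on X and 9.87% on autosomes.

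Other genes of the pathway were set beside the members, from a list of 17. Of its 15 autosomal genes 6 had an IDR peak in the window, and of its 2 X genes 1 did, against the 18.8% and 49.3% given above. Such a peak can lie up to 10000 bp outside the gene. Within 1000 bp of a transcript 5′ end, 1 of the 15 had an IDR summit, dpy-27, where 3.6% of autosomal genes did. Of the 2 on X, 1 had one, sdc-1, where 11.2% of X genes did. The gene sdc-2, which XOL-1 represses, had no peak at all in the pooled list over 30.7 kb, where the median X window held 7. It is also the gene that the transgene carries, and what that does to peak calling there was not tested. Its partner sdc-1 had 1 IDR peak (rank 824, signal 102.2), and sdc-3 had none. In the dosage compensation complex dpy-28 (rank 125, signal 287), mix-1 (rank 220), dpy-21 (rank 365) and dpy-27 (rank 422) had 1 each, and dpy-26, dpy-30 and capg-1 had none. Downstream in sex determination tra-2 (rank 913) and fem-2 (rank 1106) had 1 each, while tra-1, tra-3, fem-1 and fem-3 had none. At her-1, the known autosomal target of SDC-2, the best peak in the window had a signal of 81.6 and rank 1375, just under the weakest IDR peak. None of these 17 genes had a peak as strong as the ceh-39 promoter.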

How the data were processed

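Peak lists from ChIP-seq of 2 biological replicates of 1 group were used. The authors' calls for single replicates and for the pooled reads all used 1 control alignment, and the IDR list came from those 3 lists, per the README texts. For aligner, peak caller and IDR threshold, names and values were not given in the sources used here. Each peak has a signal, which was deposited by the authors and is ranked within a list. Across the replicate lists it was used only as a ratio, read against that of all IDR peaks.

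The ce11 lists were set against WBcel235 with the Ensembl release 115 annotation, whose chromosome lengths hold every peak. Sequences and tRNA names came from RefSeq of the same build. Lists on ce10 were left aside. Mitochondrial peaks were left out. Summits are given from position 1. Distances run from the annotated 5′ end of the gene, negative or positive along its strand. Host features are those of protein-coding genes, coding exons first, then UTRs, introns and intergenic sequence. Windows of 10000 bp, matches within 100 bp and motifs within 100 bp on both strands were used, with pandas 2.3.3 and scipy 1.17.1. The design has no comparison group, so no test was made. The X and autosomal shares of genes with an IDR peak in the gene window carry exact (Clopper-Pearson) 95% intervals for counting. Other shares are given without an interval.

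Members, motifs and lists were chosen with earlier results of these data known. The rule for named genes was the 6 members, the genes nearest to or hosting their peaks, and the pathway list. Counting functions were tested on simulated data. Alternatives were other windows, overlap instead of summits, the upper 50% of the IDR list, single replicates, transcript 5′ ends, and other flanks and matching distances. Merging close summits was added after the data were seen.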

Additional observations from a re-analysis of the deposited data

How the results depend on the processing

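Under alternative settings 56 values stayed the same and 26 moved, where the same means within 1.5 times for counts, within the interval for shares and less than 1 SD of the 2 replicate values for ranks and distances. That SD comes from the replicates themselves, so a replicate's own value can lie past it, as rank 36 of ceh-39 did. It is also wide where the replicates disagree, so there the label does not show stability. For sea-1, rank 1544 counted as the same as 2211. The number of members with an IDR peak was 4 or 5 except in the upper 50% of the list, where it was 2 and the windows held 7 peaks. Within 1000 bp of a transcript 5′ end there were 4 peaks. The X and autosomal shares were 33.2% and 11.6% at 5000 bp, 68.6% and 30.8% at 20000 bp, 11.2% and 3.60% within 1000 bp of a 5′ end, and 35.9% and 8.06% in the upper 50%, the wider windows holding more sequence. In a window of 20000 bp the best rank was 236 for sex-1 and 474 for fox-1, and at 5000 bp it was 9201 for sea-1. From the nearest transcript 5′ end the strongest summit was 1077 bp away for fox-1 and 299 bp for sea-2. GACGCAG was in 1 member window at 50 bp, and GAGAGAG in 1 at 200 bp.

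Leaving out 1 replicate gave best ranks of 871 to 883 for sex-1, 34 to 36 for ceh-39, 1509 to 2092 for fox-1 and 1544 to 5953 for sea-1. The strongest summit then lay 827 to 7964 bp from the 5′ end of sex-1, 2601 to 2607 bp for ceh-39, 3516 to 7013 bp for fox-1 and 2363 to 5555 bp for sea-1. For sex-1, fox-1 and sea-1 it was a different peak in each replicate, so these ranges do not follow 1 peak. The best pooled peak of sex-1 ranked 1799 in replicate 1 and 883 in replicate 2. The windows held 11 peaks without replicate 2 and 14 without replicate 1. No paired analysis was possible because there is 1 group. With 2 replicates and no read counts, precision can be read only from their spread, which was wide for weak peaks: the sea-1 peak of rank 2211 ranked 6511 and 1544 in the replicates.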

Other observations

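Summits in the lists were never closer than 199 bp, in each of the 4 lists. In the member windows 10 neighbouring pairs of pooled summits lay 199 to 242 bp apart. They included a weaker companion beside the xol-1 promoter summit (203 bp), the ceh-39 promoter summit (201 bp), the sex-1 intron summit (199 bp) and the sea-2 exon summit (200 bp). Those 10 pairs were among 83 pooled summits. In the whole pooled list 2795 neighbouring summits were less than 250 bp apart, among 26639, so such companions were not particular to these genes.

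By protein-coding 5′ end, 7 of the 14 IDR peaks in the windows lay nearest to a gene other than the member. The strongest was the top ceh-39 peak (rank 34), 1949 bp from T26C11.8. The downstream xol-1 summits at ranks 48 and 1115 lay 3336 and 3541 bp from C18A11.4. The others were the peak 118 bp upstream of T26C11.4, the one 29 bp into T26C11.9, the one 250 bp upstream of nucb-1 and the one at dim-1.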
